A study of Rattus norvegicus with 244 samples.

Results

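The comparison set injured raphe against injured somatomotor cortex after a spinal cord injury of moderate grade in the rat. Its members were the samples whose titles name either region, the moderate injury and 1 of 6 times (4 h, 24 h, 7 d, 14 d, 28 d and 3 months): 23 raphe and 24 cortex samples, 47 of the 84 samples of the series. Each time held 4 samples of a region, except 4 h in raphe with 3, because replicate 1 of that group was left out for degraded actin RNA (3′/5′ signal ratio 46.2, against 1.29 to 2.65 in the raphe samples used and 1.30 to 2.22 in cortex). Every sample was hybridised to 3 array types (A, B and C), which gave 141 of the 244 arrays. The labels call the tissue raphe in injured rats and raphe magno in sham-operated and naive rats, and say nothing of strain, sex, age, the level or device of the injury, or pooling. Naive rats were untouched at time 0 (4 raphe and 4 cortex samples, 1 of the raphe samples without a type C array), and sham rats had the operation without the injury, a laminectomy per the raphe labels. The sham and naive samples include some whose values go against their labels, so the comparison itself used injured samples only. No label says that the samples of a group came from separate animals, so p-values measure the spread between these samples, which may be technical. The titles do not say whether raphe and cortex samples came from the same rats, and the main fit treats them as unpaired.

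The raphe magnus lies along the midline of the lower brainstem and holds serotonin neurons that project to the spinal cord, beside large reticular neurons and dense bundles of myelinated axons. The somatomotor cortex is a layered sheet of glutamatergic pyramidal cells, some of which send the corticospinal tract, with GABAergic interneurons between them. Both give descending tracts that a spinal cord injury can interrupt. In bulk tissue of this kind, fewer cells of a type and less RNA per cell cannot be told apart.

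Levels below are log2(signal + 32) of 1 probe set, and a difference is raphe minus cortex on that scale, so a positive value is higher in raphe. A probe set was past the threshold at an adjusted p under 0.05 (limma, Benjamini-Hochberg over all 3 array types). The constant of 32 compresses differences of dim probe sets. The median of the negative controls was 5.87 on type A, 6.16 on type B and 6.09 on type C, and levels near or under these carry no signal above background. Of 26202 probe sets, 18849 passed the filter on low signals and were tested, and they covered 9231 of the 10969 genes with a single symbol. Where a gene had several probe sets, the brightest stands for it. Array medians ran from 186 to 392, and the 5th percentile of the signal, as the median over the arrays of a sample, was 31.3 in cortex 7 d replicate 2 against at most 20.1 in the raphe samples.

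The marker genes given with the comparison kept the regions apart in all 47 samples. They were chosen with earlier results of these data known, so their separation is no independent check of the labels. Sncg, gamma-synuclein of projecting neurons, lay between 11.36 and 12.75 in raphe (median 12.15) and between 5.36 and 6.94 in cortex (median 6.05), a difference of 6.02 ± 0.10 (SE, n = 23 and 24, adjusted p = 9.64e-37). Spp1, osteopontin of large motor-related neurons, lay between 11.51 and 12.72 in raphe (median 12.32) and between 5.68 and 7.63 in cortex (median 6.45), a difference of 5.73 ± 0.08 (adjusted p = 3.74e-39). Slc17a6, the vesicular glutamate transporter of brainstem and thalamic neurons, ran from 12.42 through 13.01 to 13.36 in raphe and from 7.07 through 10.06 to 10.48 in cortex (3.02 ± 0.13, adjusted p = 3.96e-22). No cortex sample reached the lowest raphe sample in any of these genes, while the cortex level of Sncg was near that of the negative controls.

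The cortical markers separated the regions as fully. Nrgn, the calmodulin-binding neurogranin of forebrain dendrites, ran from 14.04 through 14.49 to 14.95 in cortex and from 8.07 through 8.67 to 9.25 in raphe, a difference of -5.89 ± 0.08 (adjusted p = 1.41e-40). Cck, the neuropeptide cholecystokinin, ran from 13.16 through 13.47 to 14.22 in cortex and from 6.86 through 7.30 to 8.66 in raphe (-5.88 ± 0.13, adjusted p = 6.7e-33). Itpka, the inositol trisphosphate kinase of dendritic spines, ran from 10.90 through 11.31 to 11.63 in cortex and from 5.39 through 5.71 to 5.95 in raphe (-5.61 ± 0.06, adjusted p = 4.06e-44). Its median raphe level lay below the median of the negative controls, so the size of this difference is limited by background. All these markers kept their side in naive rats, at 6.62 for Sncg, 4.62 for Spp1, 3.86 for Slc17a6, -5.75 for Nrgn, -5.83 for Cck and -5.59 for Itpka.

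**Figure D1:**
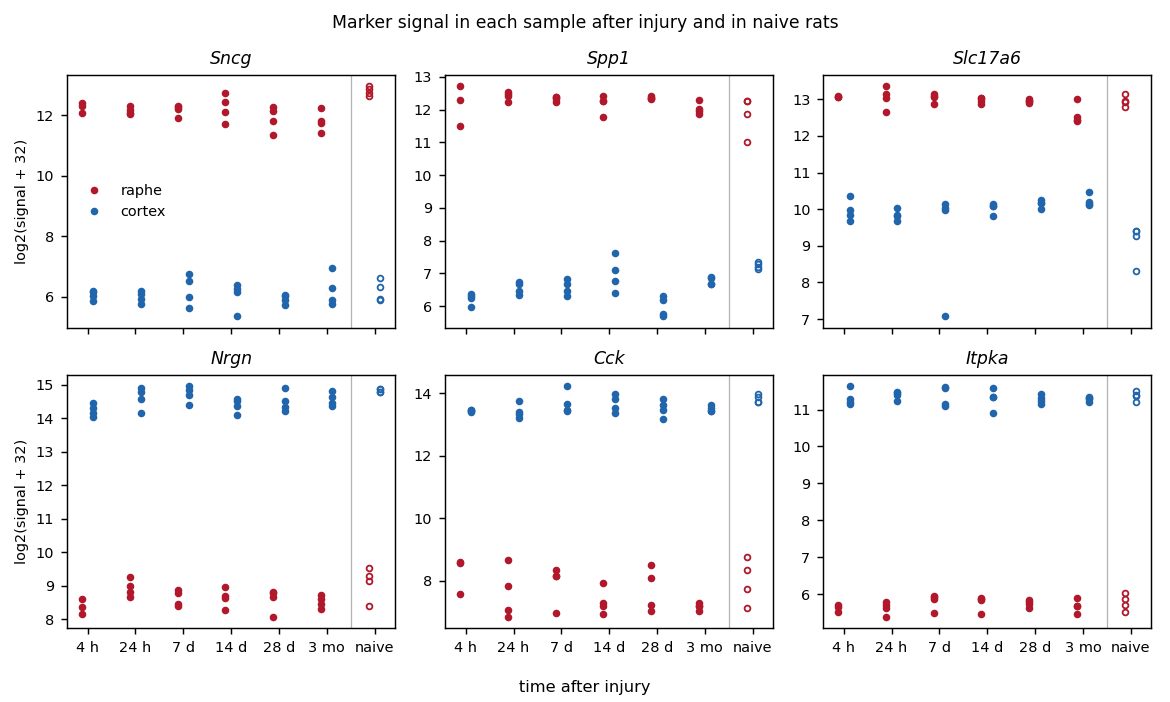
Level, log2(signal + 32), of the 6 marker genes in every sample against the time after injury, raphe in red and cortex in blue, with naive samples as open circles. In each panel the 2 regions stay apart at all 6 times, by 3.02 for Slc17a6 and by 5.61 to 6.02 in size for the others.

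Most of the transcriptome measured here differed somewhat between the regions. Averaged over the 6 times, 10332 of 18849 probe sets (54.8%) were past the threshold, 5218 higher (27.7%) and 5114 lower (27.1%) in raphe. Most of these were small: 5704 were under 0.5, 4024 between 0.5 and 1.5, and 604 over 1.5. Single times, with 4 samples a region or 3, gave 4626 probe sets at 4 h (24.5%), 4634 at 24 h (24.6%), 4706 at 7 d (25.0%), 4142 at 14 d (22.0%), 4184 at 28 d (22.2%) and 4837 at 3 months (25.7%).

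A difference that was past the threshold with one sign at all 6 times was found for 1788 probe sets (9.49%), 863 higher (4.58%) and 925 lower (4.91%), while 719 held at 5 times and 9308 at none. By gene these were 988 of 9231 (10.7%), 536 higher (5.81%) and 452 lower (4.90%). Of the 1788, a majority of 1205 (6.39% of all tested) were moderate, with a mean difference between 0.5 and 1.5, against 547 beyond that band and 36 below it. The moderate probe sets divided into 652 higher (3.46%) and 553 lower (2.93%), and by gene into 410 higher (4.44%) and 283 lower (3.07%) of 693 (7.51%). No raphe sample overlapped any cortex sample in 508 of the 1205 (42.2%), so most moderate probe sets had some overlap, and in 435 of the 547 beyond the band (79.5%). Over all 18849 the share was 5.18% (976), and nothing is read from the members' higher share, since they were chosen for passing at every time. The band has no natural edge. Atp5mf (0.50) and Arl6ip1 (0.50) fell just under 0.5, Ilrun (-0.50) and Map4k3 (-0.50) just over it, Cacna1d (-1.49) and Cnr1 (-1.49) just under 1.5, and Scn3b (-1.504) and Gmnn (1.504) just over.

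Probe sets of a gene need not say the same. Of 3157 genes with several probe sets tested, 506 had at least 1 that held at every time and 111 had all of them hold. Ensa, Exoc3, Ppp3cb and Septin8, singled out after their values were seen, had probe sets that held in opposite directions. Ppp3cb, the beta catalytic subunit of the phosphatase calcineurin, gave -1.82 and -1.23 with probe sets on types B and A and 1.70 with one on type C. Septin8 gave -1.77 and 1.64, Ensa -2.58, -1.38 and 1.20, and Exoc3 -0.95 and 0.70, so no direction is given for these genes as a whole.

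The naming rule gave the 10 largest differences at every time in each direction. Tppp3, a tubulin polymerisation protein of ciliated cells, was 4.43 higher (raphe 12.38 to 13.09, cortex 7.04 to 9.09). Dao, the D-amino acid oxidase of hindbrain astrocytes, was 3.96 higher (9.61 to 10.44 against 5.27 to 6.99), and Chodl, a lectin of fast motor-type neurons, 3.48 higher (8.19 to 11.17 against 5.58 to 7.43). The neurofilament genes Nefh (2.98) and Prph (2.98), the calcium buffer Calb2 (3.04) and Cdr2 (3.26) completed the 10 largest with Sncg, Spp1 and Slc17a6. The cortex level of Cdr2 (mean 5.91) was at the negative controls, and its difference ran from 2.104 to 4.298 with the constant added to the signal. The sizes given for Dbh, Gal and Tac3 likewise moved by over 1.5 times with the constant, to 1.68, 1.84 and -1.61 with the larger one. In the other direction stood Arpp21 (-5.42), a cyclic AMP-regulated phosphoprotein of forebrain neurons, Crym (-4.66), the thyroid hormone-binding crystallin of deep cortical layers, Ddn (-4.39) of dendrites, and Lhx2 (-3.80), a transcription factor that patterns the cortex. Hpcal4 (-3.74), Fam107a (-3.73) and Ptk2b (-3.52) followed. In none of these genes did a raphe and a cortex sample overlap.

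The moderate differences with the smallest p-values were in genes that both regions express well. Pacs2, a sorting protein at contacts between endoplasmic reticulum and mitochondria, ran from 12.84 through 13.03 to 13.37 in raphe and from 11.28 through 11.65 to 11.93 in cortex, a difference of 1.38 ± 0.040 (adjusted p = 4.11e-28). Dbi, the acyl-CoA binding protein that also acts on GABA-A receptors, ran from 11.96 through 12.20 to 12.62 and from 10.39 through 10.83 to 11.20 (1.39 ± 0.059, adjusted p = 9.72e-23). Fbxo2, a glycoprotein-binding ubiquitin ligase subunit of neurons, ran from 11.88 through 12.16 to 12.42 and from 10.50 through 10.84 to 11.24 (1.34, adjusted p = 1.86e-22). The raphe samples were the higher ones throughout, with a gap between the groups in each gene. The second probe set of Pacs2 gave 0.33.

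The same rule named 9 more genes in this direction. Cmtm5, a membrane protein of oligodendrocytes, was 1.18 higher (raphe 13.16 to 13.71, cortex 11.85 to 12.56), and Mid1ip1, a regulator of fatty acid synthesis, 1.19. Osbpl9, an oxysterol-binding protein, was 1.21 ± 0.052 higher after injury (10.68 to 11.51 against 9.33 to 10.31, adjusted p = 1.63e-22) and 0.48 higher in naive rats (adjusted p = 0.125). The naive raphe samples read 9.04, 10.85 and 10.95, so 1 low sample sets the naive value. The difference between these 2 values, 0.73, was not past the threshold (adjusted p = 0.267). Arhgef10, Rnf130, a ubiquitin ligase, and Trpm3, a cation channel, were 1.35, 1.41 and 1.47 higher, and Coprs, Comtd1 and 1 probe set of Ensa 1.32, 1.49 and 1.20.

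Moderate differences towards cortex included genes of neurons in general as well as of cortical synapses. Rbfox3, the splicing factor known as NeuN, ran from 13.70 through 13.98 to 14.31 in cortex and from 12.63 through 12.94 to 13.17 in raphe, a difference of -1.06 ± 0.046 (adjusted p = 3.18e-22). Slc30a3, which loads zinc into glutamatergic vesicles, ran from 13.55 through 14.00 to 14.31 in cortex and from 12.76 through 12.98 to 13.18 in raphe (-1.03 ± 0.044, adjusted p = 1.6e-22). Kcnip2, a subunit of A-type potassium channels, ran from 11.60 through 11.85 to 12.46 in cortex and from 10.32 through 10.59 to 10.92 in raphe (-1.27, adjusted p = 1.49e-22). Every cortex sample exceeded every raphe sample in these genes.

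Ak5, a neuronal adenylate kinase, had the smallest p-value among the moderate genes lower in raphe, with cortex from 11.91 through 12.46 to 12.72 and raphe from 10.79 through 11.10 to 11.20 (-1.35 ± 0.043, adjusted p = 7.04e-27). Car11, a carbonic anhydrase-related protein, differed by -1.48 (adjusted p = 9.16e-27). Smad3, an effector of TGF-beta signalling, ran from 10.01 through 10.49 to 10.96 in cortex and from 8.74 through 8.98 to 9.52 in raphe (-1.44 ± 0.063, adjusted p = 3.43e-22). Its difference was -1.94 at 4 h, -1.72 at 24 h, -1.30 at 7 d, -1.32 at 14 d, -1.26 at 28 d and -1.08 at 3 months (F test adjusted p = 0.215), and -0.69 in naive rats. The injured and naive values of Smad3 did not differ past the threshold (-0.75, adjusted p = 0.0751). In sham-operated samples from 4 h to 28 d the difference of Smad3 was -1.39. The injured difference at those times did not differ from the sham one past the threshold (-0.12, adjusted p = 0.712). Garnl3 (-1.41), Pgbd5 (-1.42), the transcription factor Tshz3 (-1.41), Sec14l1 (-1.16), the postsynaptic Rap regulator Sipa1l1 (-1.46) and the adhesion receptor Adgrb2 (-1.39) made up the 12.

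**Figure D2:**
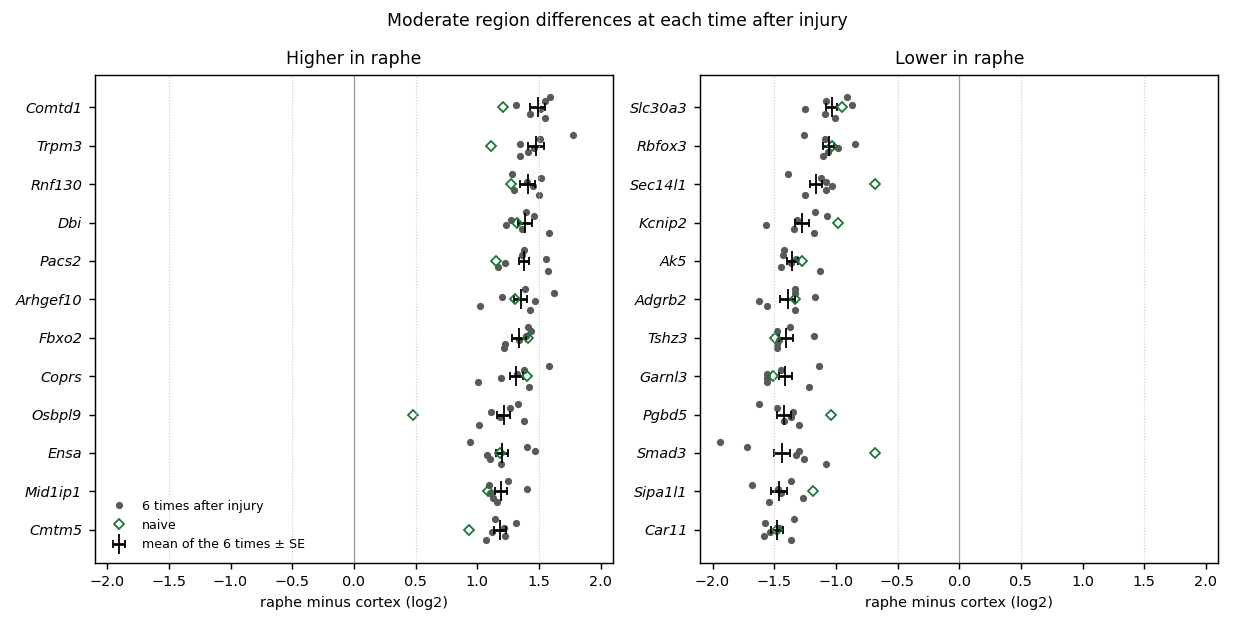
Raphe minus cortex difference, log2, of the 12 moderate genes in each direction with the smallest p-values. Grey dots are the 6 times, the black point with its bar the mean ± SE and the green diamond the naive samples. The grey dots of a gene lie on one side of 0 at all 6 times, and the naive difference of Smad3 (-0.69) sits nearer to 0 than the injured mean, as does that of Osbpl9 (0.48), which 1 low naive raphe sample sets. Sham-operated samples, not drawn, gave -1.39 for Smad3 and 1.06 for Osbpl9.

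Gene groups were read from lists by role, with the count over all 9231 genes (32.5% higher, 25.8% lower) as the background. The lists were chosen with earlier results of these data known, so their counts are descriptive. The forebrain list holds the markers Nrgn, Itpka and Cck, and the brainstem list holds Sncg, Spp1 and Slc17a6. Neurons came first. All 23 forebrain neuron genes tested were lower in raphe and 20 of them at every time (median -2.41, against 0.02 for all genes). Rgs14 (-1.28), Cnr1, the cannabinoid receptor (-1.49), Tbr1, a transcription factor of deep layer neurons (-0.97), and Camk2b (-0.78) were the moderate ones. Of 17 brainstem neuron genes 16 were higher and 13 at every time (median 1.65). Zfhx3 (1.46), Mab21l2 (1.29) and Tac1 (1.07), the substance P precursor, were moderate, the hindbrain patterning gene Hoxd3 differed by 1.65, and Isl1 by -0.02 (not past the threshold).

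Genes of serotonin and catecholamine neurons had a list median of 0.52. Of 17 tested, 11 were higher, 3 lower and 4 higher at every time. Ddc, the decarboxylase that makes serotonin and dopamine, ran from 9.41 through 9.88 to 10.56 in raphe and from 7.47 through 7.998 to 8.48 in cortex (1.98). Its difference was 2.75 at 4 h, 2.18 at 24 h, 2.11 at 7 d, 1.85 at 14 d, 1.67 at 28 d and 1.34 at 3 months, and 1.58 in naive rats, and the change with time missed the threshold (F test adjusted p = 0.0722). Htr2c, a serotonin receptor, ran from 11.08 through 12.29 to 13.10 in raphe and from 8.37 through 9.20 to 10.39 in cortex (2.94, adjusted p = 4.01e-25). Neither gene had overlapping samples. Th, tyrosine hydroxylase, was 1.72 higher and Qdpr, which recycles the cofactor of both pathways, 1.09 higher. The more specific genes did not hold at every time: Dbh, which makes noradrenaline, differed by 2.65, Slc6a4, the serotonin transporter, by 1.07, Fev, the transcription factor of serotonin neurons, by 0.58 and Slc18a2, the vesicular monoamine transporter, by 0.52.

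Inhibitory transmission moved both ways. Slc6a9, a glycine transporter, ran from 13.01 to 13.52 in raphe and from 10.60 to 11.52 in cortex (2.12), and Slc32a1, the vesicular transporter of GABA and glycine, was 1.11 higher. Vip (-3.11), Npy (-1.33) and Sst (-0.93), peptides of cortical interneurons, were lower at every time, and so were the extrasynaptic receptor subunit Gabrd (-2.52) and Gabrb2 (-0.74). Of 26 genes 8 were higher and 14 lower (every time 3 and 6). Glutamate receptors and transporters leaned towards cortex with 15 of 26 lower and 4 higher. Gria2, the AMPA receptor subunit that sets calcium permeability, ran from 9.20 to 10.71 in cortex and from 7.20 to 8.27 in raphe (-2.46). Grm2 (-1.75), Grik5 (-1.26) and Slc1a1 (-1.04) were the others lower at every time.

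The postsynaptic calcium pathway, through which synaptic calcium acts on calmodulin, its kinases and phosphatases and on phosphoinositide signals, had most of its members lower in raphe. Of 36 genes 28 were lower and 3 higher in raphe, 19 were lower at every time, and 8 of the 19 were moderate (median of the list -0.92). The moderate ones were Plcb1 (-1.49), Prkce (-1.43), Dlgap1 (-1.36), Ppp3ca (-1.26), Ppp1r1a (-1.17), Adcy2 (-0.91), Camkk1 (-0.81) and Camk2b (-0.78). They cover a phospholipase, kinases, a phosphatase, a scaffold and an adenylate cyclase. Adcy8 (0.87), Camk2d (0.44) and Plcb4 (0.42) were the 3 higher in raphe, none of them at every time, and the calmodulin gene Calm3 (-0.03) was not past the threshold.

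Ion channels differed subunit by subunit. Among sodium channel genes, Scn2a, of unmyelinated and initial segments, ran from 11.22 to 11.89 in cortex and from 8.91 to 10.06 in raphe (-2.23). Scn4b, a beta subunit of fast-firing neurons, ran from 11.62 to 12.33 in raphe and from 9.71 to 10.75 in cortex (1.75). Of 31 potassium channel genes 16 were lower and 4 higher, with Kcnj4 (-2.81), Kcnv1 (-2.69), Kcnh1 (-2.30), Kcnf1 (-2.15), Kcnh3 (-1.77) and Kcnip2 lower at every time, and Kcnj16 (1.97) and Kcnc1, which supports fast firing (0.87), higher. All 12 calcium channel genes were lower in raphe, 4 of them at every time: Cacna2d1 (-2.07), Cacnb1 (-1.66), Cacnb3 (-1.58) and Cacna1d (-1.49).

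Genes of the release machinery lay on both sides. Vamp1, the vesicle SNARE of brainstem and spinal terminals, ran from 14.20 to 15.11 in raphe and from 12.38 to 12.92 in cortex (1.75), while Vamp2, its counterpart in most forebrain terminals, was lower in raphe (-0.86). Stx1a, a SNARE of the plasma membrane, ran from 12.82 to 13.72 in cortex and from 9.26 to 10.18 in raphe (-3.26), whereas Snap25, its partner, differed by -0.03 (not past the threshold). Of 32 genes 21 were lower and 6 higher, and 9 were lower at every time, among them Syt5 (-1.64), Sv2b (-1.41) and Syn1 (-0.90).

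Peptide precursors marked both regions. Of 22 genes 7 were higher at every time (Gal 2.79, Calca 1.79, Cartpt 1.63, Scg2 1.47, Penk 1.23, Tac1 1.07 and Trh 1.04) and 5 lower (Cck, Vip, Tac3 at -2.55, Npy and Sst). Gal ran from 6.96 to 10.19 in raphe and from 5.72 to 7.08 in cortex, so its groups overlapped, whereas those of Penk did not (10.58 to 11.61 against 9.30 to 10.26). The axonal cytoskeleton was higher in raphe: 20 of 29 genes against 6 lower, with Nefh (raphe 13.32 to 13.86, cortex 10.24 to 10.88), Nefm (2.101) and Nefl (1.60), the neurofilament triplet, and Map4 (0.80) higher at every time. Genes tied to axon growth lay on both sides (7 of 30 higher, 12 lower), with Gal and Arg1 (1.67) higher at every time, Vip, Basp1 (-1.39), Gfra2 (-1.37) and Nrcam (-0.94) lower at every time, and Gap43 (-0.52) lower on average.

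Myelin genes gave moderate differences of one sign. Of 20 tested, 17 were higher in raphe, none lower, and 15 were higher at every time, 11 of them within the moderate band (median 1.21). Pllp, plasmolipin, ran from 11.18 through 11.58 to 11.77 in raphe and from 9.45 through 10.02 to 10.57 in cortex (1.49, adjusted p = 3.89e-22). Mog, a surface glycoprotein of the outer myelin sheath, ran from 11.48 through 12.003 to 12.44 and from 9.93 through 10.48 to 11.001 (1.52). Cnp (1.38), Gsn (1.38), Gjb1 (1.36), Cldn11 (1.25), Mobp (1.22), Mag (1.19) and Mal (0.81), all of compact myelin, its junctions or its cytoplasm, and the transcription factor Sox10 (1.18) were moderate, as was Pllp. Mbp (0.46) and Tspan2 (0.70) were past the threshold on average only. The progenitor genes Pdgfra (0.02) and Cspg4 (0.04) and the lineage factor Olig2 (0.02) were not past it. The summed signal of the 20 genes ran from 158493 to 232026 in raphe (median 173445) and from 79025 to 125700 in cortex (median 95816), with no overlap.

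Astrocyte genes gave no common direction, with 11 of 22 higher and 4 lower. Agt, angiotensinogen of hindbrain astrocytes, ran from 12.64 to 13.67 in raphe and from 9.84 to 11.20 in cortex (2.72), and Aqp4 (1.54), Slc4a4 (1.41), Atp1b2 (0.81) and Fabp7 (0.79) were also higher at every time. Id3 (-0.81) was lower. None of the 20 microglia genes, and none of the 16 vessel genes, held at every time, with 8 and 5 higher and 3 and 1 lower on average. Summed microglial signal ran from 23959 to 30958 in raphe and from 19278 to 28869 in cortex, with overlap.

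Some markers of tissues next to each dissection also differed between the regions. Of 8 choroid plexus and ependyma genes 5 were higher and none lower in raphe, and Tppp3 and Enpp2 (1.90) held at every time. Enpp2 is also on the myelin list. Ttr, transthyretin of choroid plexus, ran from 7.23 through 10.78 to 15.69 in raphe and from 7.83 through 8.48 to 11.10 in cortex (2.71 ± 0.48, adjusted p = 6.14e-06), while Kl (-0.04), Kcne2 (-0.17) and Folr1 (0.29), equally of choroid plexus, were not past the threshold. The summed signal of the list ran from 11420 to 81111 in raphe (median 15022) and from 3218 to 5580 in cortex (median 3734). This sum includes Tppp3 and Enpp2, so its separation is not that of choroid plexus genes alone. Of 26 meningeal genes 6 were higher and 7 lower (median -0.07), against 32.5% and 25.8% of all genes, so this list gave no common direction. Lgals1 (2.28), Apod (2.27) and Igfbp5 (1.85) were higher at every time. The 7 lower ones, Aldh1a2 (-1.56) among them, were lower on average only, and Dcn (0.08) and Lum (-0.05) were not past the threshold. The size for Aldh1a2 depends on the processing, from -2.17 to -0.92 over the alternatives and the fits without single samples. The summed signal of the 26 genes ran from 40275 to 88006 in raphe and from 30640 to 39553 in cortex. This sum includes Lgals1, Apod and Igfbp5, so its separation is not that of the list as a whole. The part of these neighbouring tissues in the other differences was not tested.

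Cerebellar and striatal or hippocampal lists, 9 and 12 genes, split both ways (4 higher and 4 lower, 4 higher and 6 lower). Itpr1 (-3.43), Calb1 (-1.04), Wfs1 (-1.74) and Gng7 (-0.81) were lower at every time, and Penk and Tac1 higher. Blood genes gave 1 of 5 past the threshold, Hbe1 at -0.37, which missed it under quantile normalization (adjusted p = 0.0669).

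**Figure D3:**
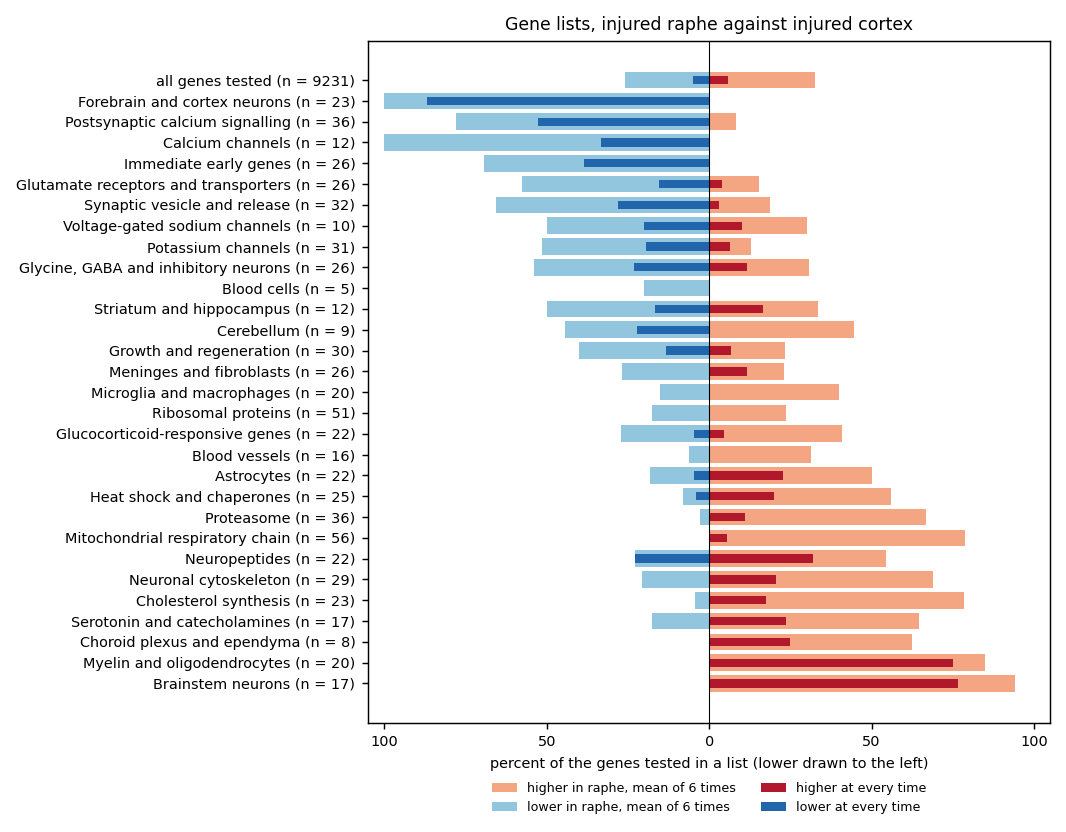
Percent of the genes tested in each list that were higher (right) or lower (left) in raphe, pale for the mean of the 6 times and dark for all 6 times, with the number tested in each label. Forebrain neuron, postsynaptic calcium and calcium channel lists lie to the left, and brainstem neuron, myelin and respiratory chain lists to the right.

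Immediate early genes, whose transcription follows neuronal activity within minutes, were in part lower in raphe. Of 26 tested 18 were lower, none higher and 8 not past the threshold, with 10 lower at every time (median -0.82): Nr4a1 (-2.99), Klf10 (-2.86), Egr1 (-2.85), Arc (-2.55), Egr2 (-2.37), Junb (-2.33), Homer1 (-2.05), Dusp6 (-1.83), Nptx2 (-1.77) and Egr4 (-0.63). Their promoters are shown for 3 of the transcription factors among them, since activity is known to act through the cyclic AMP response element (CRE) and the serum response factor site (CArG box) there. The sequences are the 250 bases before the RefSeq start (GRCr8), 5′ to 3′ on the gene's strand: Egr1 at chr18:26736828-26737077 (plus strand), Nr4a1 at chr7:134259888-134260137 (plus) and Egr2 at chr20:21054442-21054691 (minus). Capitals mark the CRE half-site (TGACG or its reverse complement CGTCA) and the CArG box.
Egr1: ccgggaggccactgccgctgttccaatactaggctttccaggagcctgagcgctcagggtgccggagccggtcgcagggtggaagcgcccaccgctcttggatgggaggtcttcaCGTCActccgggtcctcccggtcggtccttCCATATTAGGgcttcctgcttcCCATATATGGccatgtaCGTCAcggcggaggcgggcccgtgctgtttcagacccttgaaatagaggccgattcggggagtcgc
Nr4a1: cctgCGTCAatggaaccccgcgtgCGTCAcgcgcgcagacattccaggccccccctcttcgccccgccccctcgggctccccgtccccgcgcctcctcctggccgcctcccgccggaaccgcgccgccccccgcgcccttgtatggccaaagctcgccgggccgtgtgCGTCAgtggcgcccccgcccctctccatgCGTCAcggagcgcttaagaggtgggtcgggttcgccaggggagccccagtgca
Egr2: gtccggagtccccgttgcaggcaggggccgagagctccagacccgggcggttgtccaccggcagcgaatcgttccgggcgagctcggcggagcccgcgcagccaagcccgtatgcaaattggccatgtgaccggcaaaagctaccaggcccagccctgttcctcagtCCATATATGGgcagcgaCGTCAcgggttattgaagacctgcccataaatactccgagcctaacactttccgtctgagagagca

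Of the 10 genes 8 were found by symbol in that table. The half-site lay in 6 of their 8 promoters (75.0%) and in 18.2% of all 33465 promoters of that length, and in 8 of 18 promoters (44.4%) of the other immediate early genes tested. Some of those genes have several promoters in the table, so the shares are not over like units. A CArG box lay in 2 of the 8 (25.0%), in 1.497% of all and in 1 of the 18 promoters (5.56%). The full palindromic CRE (TGACG followed directly by TCA, which holds the half-site on both strands) lay in none of the 8, in 1.59% of all and in 4 of the 18 promoters (22.2%). These are matches of letters and no measure of binding.

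Without injury the regions differed in much the same genes. This check is limited, since some naive and sham samples have values that go against their labels. In naive samples 3748 probe sets (19.9%) were past the threshold, 9.83% higher and 10.1% lower in raphe. Of the 1788 that held at every time after injury, 1632 (91.3%) were past it in naive rats in the same direction, 156 were not past it, and none was past it in the opposite one. The shares were 1068 of 1205 (88.6%) for the moderate ones and 533 of 547 (97.4%) for those beyond the band. Larp1 (0.81 after injury, -0.19 naive), Aqp4 (1.54 and -0.50), Pigp (1.02 and -0.51) and a probe set without a single gene name (1.04 and -0.05) had opposite signs, with naive adjusted p-values from 0.5 to 0.941, and are named because they were so few. The median size was 1.15 after injury and 1.06 in naive rats over the 1788, and 0.95 and 0.85 over the moderate ones. Sham-operated samples from 4 h to 28 d, set in place of naive ones, gave 1784 of 1788 (99.8%) past the threshold in the same direction, where 40.4% of all tested were past it. Leaving out cortex sham 14 d replicate 2, whose low signals were raised, gave 1785.

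**Figure D4:**
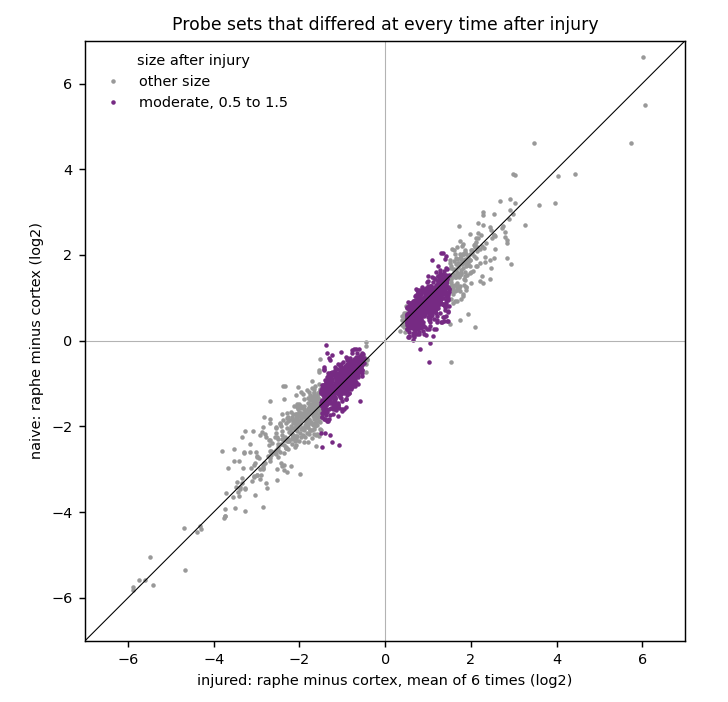
Raphe minus cortex difference, log2, of the 1788 probe sets that held at every time after injury, with the naive difference on one axis and the mean after injury on the other, the 1205 moderate ones in purple and a line of equality. The points follow the line, and 1784 of 1788 have the same sign in both.

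Only 2 probe sets (0.0106%) had an injured difference that differed from the naive one past the threshold, 1 in each direction (0.00531% each), against 1815 at an unadjusted p under 0.05. A type C probe set of Mgll, the monoglyceride lipase that degrades an endocannabinoid, read 9.61, 9.40, 9.59 and 10.62 in naive cortex and 6.48, 6.57 and 6.46 in naive raphe (-3.30). In injured cortex it read 6.79, 6.52, 6.52 and 8.48 at 4 h and 8.60, 8.44, 8.91 and 9.33 at 3 months, all below the naive values, and the injured difference was -0.95. The change of 2.35 ± 0.39 (adjusted p = 0.0071) did not appear in the gene's 5 other probe sets, none of which was past the threshold. Hbb-bs, a beta-globin, read 13.65, 13.69, 13.25 and 13.41 in naive raphe and 12.02, 11.46, 12.12 and 12.19 in naive cortex (1.55), with no overlap. After injury its difference was 0.17, a change of -1.38 ± 0.27 (adjusted p = 0.0487). It missed the threshold under 5 of 11 alternatives (adjusted p up to 0.0799) and in 25 of 55 fits that left out 1 sample. The summed signal of the blood genes ran from 22960 to 26368 in naive raphe, from 12198 to 17236 in naive cortex, and from 10879 to 24128 and 11587 to 26339 after injury. The part of blood in the Hbb-bs value was not tested. Among genes that missed the threshold, Spp1 (1.12, adjusted p = 0.0684), Slc12a9 (-1.70, 0.0684), Hba-a1 (-1.16, 0.0684), Cbln1 (-0.97, 0.0751) and Pak4 (-0.99, 0.0751) had the smallest p-values. Against sham samples their changes were 0.56, -0.15, -0.51, 0.14 and -0.18 in that order, none past the threshold.

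Region differences that shifted with time were few. An F test of the 5 region by time terms was past the threshold for 16 probe sets (0.0849%), against 2200 at an unadjusted p under 0.05, and only 3 of these 16, for Mchr1, Egr1 and a probe set without a gene name, were among the 1788. A directed test, 4 h and 24 h against the 4 later times, gave 3 probe sets (0.0159%), all with a difference that was lower early, and 1902 at an unadjusted p under 0.05. Neither count was steady when single samples were left out: the F test gave 8 without raphe 3 months replicate 2 and 46 without cortex 28 d replicate 4, and the directed test 2 without cortex 24 h replicate 1 and 25 without raphe 4 h replicate 4. With the replicate number as a block, the F test gave 0 and the directed test 2.

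Ankfy1, an endosomal Rab5 effector, had the smallest p-value, with a type C probe set that the naming rule did not choose and that was singled out after its values were seen. Its raphe samples read 7.50, 6.35 and 7.80 at 4 h, 7.86, 7.78, 7.43 and 7.69 at 24 h, and 8.86, 8.87, 9.35 and 8.60 at 14 d. Its cortex samples read 8.86, 8.61, 8.78 and 8.12 at 4 h, 9.22, 9.03, 9.54 and 9.15 at 24 h, and 8.19, 7.70, 8.12 and 8.10 at 14 d. Raphe was thus wholly below cortex at 4 h and 24 h and wholly above it at 14 d. The difference ran -1.37, -1.55, 0.23, 0.89, 0.15 and -0.57 over the 6 times (F test adjusted p = 0.00291), and early minus late was -1.64 ± 0.23 (adjusted p = 0.000367). Within raphe it was -1.21 (adjusted p = 3.75e-05) and within cortex 0.42 (adjusted p = 0.239). The 2 other probe sets of Ankfy1, on type A, gave F test adjusted p-values of 0.862 and 0.937.

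Mrpl41, a protein of the mitochondrial ribosome, differed past the threshold at 4 h alone. Its cortex samples read 13.20, 12.88, 12.84 and 12.64 at 4 h and 11.37, 11.33, 11.39 and 11.26 at 24 h, against 11.18, 11.03, 11.25 and 11.23 in naive cortex. Raphe read 12.02, 11.24 and 12.03 at 4 h and 11.30, 11.17, 11.46 and 11.47 at 24 h. The 4 h cortex samples stood above all others, and the difference ran -1.12, 0.01, 0.08, 0.14, -0.07 and 0.29 (F test adjusted p = 0.00587). Early against late was 0.94 within cortex (adjusted p = 7.5e-09) and 0.27 within raphe (adjusted p = 0.171), a shift of -0.67 ± 0.13 (adjusted p = 0.0367). The shift missed the threshold without the filter, with the replicate number as a block (adjusted p up to 0.152) and in 16 of 47 fits that left out 1 sample, and the F test missed it with the block (adjusted p = 0.199).

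Cyp4b1, a cytochrome P450, moved in raphe. It read 7.57, 7.13 and 7.00 at 4 h, 7.90, 8.11, 8.79 and 8.02 at 24 h, 6.36, 5.89, 6.20 and 7.14 at 28 d, and 6.12, 5.97, 5.61 and 6.19 at 3 months there, against 6.54, 6.83, 5.61 and 6.79 in naive raphe. Cortex read 6.04, 5.73, 6.06 and 6.05 at 24 h, at the negative controls, and its other times lay as low. The 24 h raphe samples were the highest, and the difference ran 1.39, 2.24, 1.54, 1.30, 0.39 and -0.06 (F test adjusted p = 0.00587). Within raphe, early exceeded late by 1.04 (adjusted p = 0.000168).

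Egr1, the activity-driven transcription factor, kept its direction but not its size. A second type A probe set, singled out after its values were seen, read 10.70, 10.51, 10.85 and 10.55 in cortex at 4 h, 11.81, 11.98, 12.60 and 12.26 at 24 h and 12.64, 12.67, 12.75 and 12.60 at 28 d, against 11.07, 11.18, 11.52 and 12.23 in naive cortex. Raphe read 8.91, 8.99 and 8.74 at 4 h and 9.80, 9.63, 9.503 and 9.20 at 28 d. The 4 h cortex samples were the lowest of their region here. The cortex values 11.81 and 11.98 at 24 h are from arrays whose descriptions give 4 h. The difference ran -1.77, -2.83, -3.01, -3.26, -3.14 and -3.10 (F test adjusted p = 0.0465), and early minus late within cortex was -0.93 (adjusted p = 5.3e-06). The F test missed the threshold under 3 of 11 alternatives (adjusted p up to 0.129) and in 27 of 47 fits that left out 1 sample. The other 3 probe sets of Egr1 gave F test adjusted p-values of 0.0953, 0.125 and 0.882.

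**Figure D5:**
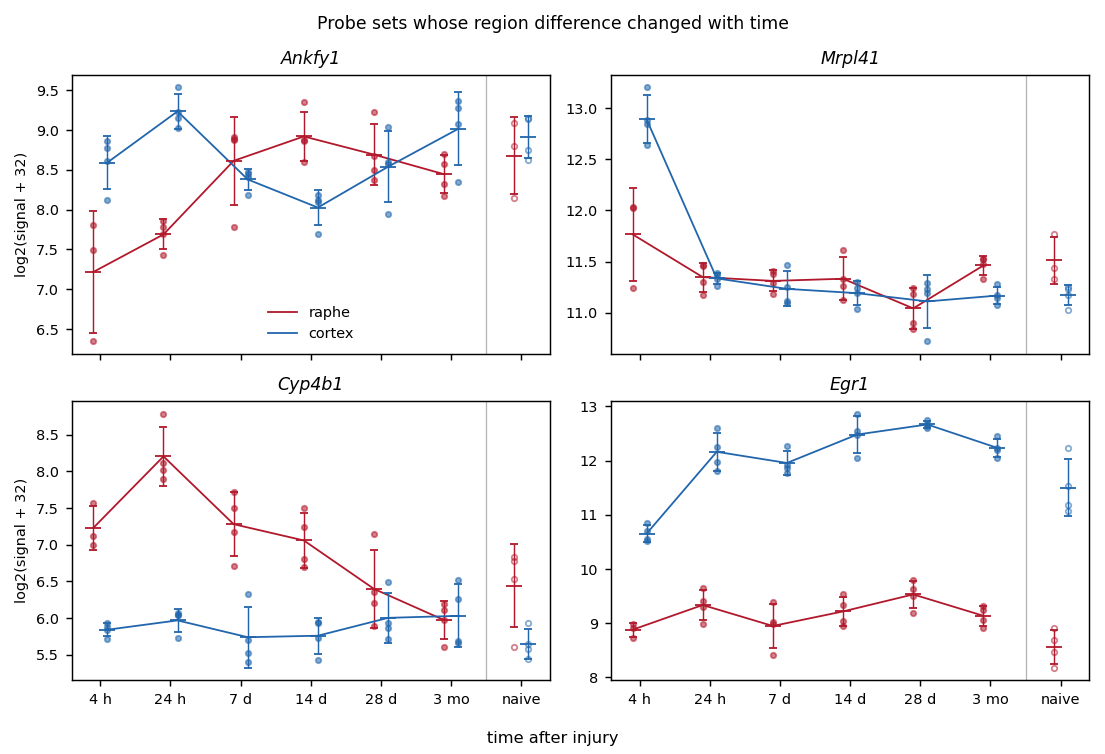
Level, log2(signal + 32), of Ankfy1, Mrpl41, Cyp4b1 and Egr1 in every sample against the time after injury, raphe in red and cortex in blue, with lines joining the means, bars of ± 1 SD and naive samples as open circles. The lines of Ankfy1 cross, cortex Mrpl41 is high at 4 h alone, raphe Cyp4b1 peaks at 24 h and cortex Egr1 is low at 4 h.

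In several other F test results the value at 3 months stood apart. The difference of Mfhas1 was between -0.60 and 0.42 up to 28 d and 1.89 at 3 months (adjusted p = 0.0254). Its cortex mean at 3 months was 6.05, at the negative controls, against 7.80 in naive cortex. That of Hdhd5 was -1.67 at 3 months after values between -0.50 and 0.08 (adjusted p = 0.0209), and that of Mchr1, a receptor of melanin-concentrating hormone, -2.03 after values between -1.08 and -0.76 (adjusted p = 0.0271). Scarb1, the receptor of high-density lipoprotein, gave -1.07 at 4 h, 0.26 at 7 d and -1.71 at 3 months (adjusted p = 0.0302). Fam135a gave -1.10 at 28 d and 0.55 at 3 months (adjusted p = 0.0302), Get4, which inserts tail-anchored proteins in membranes, -0.53 at 4 h and 0.35 at 7 d (adjusted p = 0.0278). Hdhd5 and Mchr1, like Ube2e2 and Zfp91 (adjusted p = 0.0209 and 0.0232), were shown by probe sets outside the naming rule, and no second probe set of any of these genes passed the F test. Of 47 fits that left out 1 sample, the F test missed the threshold in 11 for Fam135a and 7 each for Mchr1 and Scarb1. It missed in 6 for Mfhas1, 5 for Get4, 4 for Zfp91 and 3 each for Hdhd5 and Ube2e2. Over all tested, 57 probe sets (0.302%) were past the threshold in opposite directions at different times. Besides Get4 and Fam135a, these included Hes6 (-0.52 at 4 h, 0.44 at 3 months), Dctn4 (-1.40 at 4 h, 0.85 at 7 d), Rdh16 (-0.82 at 4 h, 0.72 at 7 d) and Dgka (-0.52 at 4 h, 0.45 at 3 months), none of which passed the F test.

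Early against late changes within a region were past the threshold more often than shifts between regions. The shift is the difference of both changes, so its SE is larger (for Arc 0.21, against 0.15 in raphe and 0.14 in cortex). At an unadjusted p under 0.05 the counts were nearer, with 2376 in raphe, 2331 in cortex and 1902 for the shift. Raphe gave 131 probe sets (0.695%), 62 higher (0.329%) and 69 lower (0.366%) at 4 h and 24 h; under quantile normalization the 115 found were split into 73 higher and 42 lower. Cortex gave 178 (0.944%), 94 higher (0.499%) and 84 lower (0.446%). Leaving out raphe 4 h replicate 2 brought the raphe count to 40, and leaving out cortex 24 h replicate 1 brought the cortex count to 99. Both lists shared 21 probe sets (0.111% of all tested, 16.0% of the raphe list and 11.8% of the cortex list), all in the same direction. Of the raphe list 90 of 131 had the same sign in cortex, and of the cortex list 143 of 178 in raphe.

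Some of the genes that glucocorticoid hormones induce were higher early in both regions. Of 22 tested 5 were higher early in raphe and 8 in cortex, none was lower, and 4 were past the threshold in both. Over all genes the shares higher early were 0.401% in raphe and 0.639% in cortex. Fkbp5, a cochaperone of the glucocorticoid receptor, ran from 8.16 through 8.51 to 10.43 early and from 5.67 through 7.58 to 8.39 late in raphe (1.57, adjusted p = 0.000168), and from 8.69 through 9.79 to 10.72 early and from 7.40 through 8.52 to 9.01 late in cortex (1.34, adjusted p = 0.000598). Tsc22d3, which encodes the leucine zipper GILZ, was 0.42 higher early in raphe (adjusted p = 0.00639) and 0.53 in cortex (adjusted p = 5.18e-05). Pdk4, a kinase that restrains glucose oxidation, gave 1.08 (adjusted p = 0.0242) and 1.13 (adjusted p = 0.00725), and Cdkn1a 0.77 and 0.83. Outside the list, Gpd1, glycerol-3-phosphate dehydrogenase, ran from 11.80 through 13.25 to 13.81 early and from 11.72 through 12.06 to 12.36 late in raphe (1.03, adjusted p = 2.15e-05). In cortex it ran from 12.07 to 12.48 early and from 10.55 to 11.72 late, without overlap (0.93, adjusted p = 2.55e-05). None of these genes shifted its region difference past the threshold.

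Some immediate early genes were lower early in cortex, 6 of 26 past the threshold, and none of 26 in raphe (list medians -0.33 and -0.12). Over all genes the shares lower early were 0.433% in cortex and 0.336% in raphe. Arc, which acts on AMPA receptor traffic, ran from 11.12 through 11.57 to 12.80 early and from 11.90 through 12.75 to 13.56 late in cortex (-0.96, adjusted p = 7.92e-05), and from 9.49 through 9.65 to 9.96 early and from 9.77 through 10.04 to 10.58 late in raphe (-0.35, adjusted p = 0.313). Egr2 (-1.19, adjusted p = 0.000529), Nr4a1 (-1.02, adjusted p = 0.00138), Dusp6 (-0.74, adjusted p = 0.00833), Junb (-0.69, adjusted p = 0.0271) and the brightest Egr1 probe set (-0.63, adjusted p = 0.00322) were the others in cortex. The difference between the regions in this change was not past the threshold for any of the 6, with 0.61 for Arc (adjusted p = 0.303) and 0.95 for Egr2 (adjusted p = 0.219), so this early change is not shown to differ between cortex and raphe for these probe sets.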

How the data were processed

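The authors deposited 1 intensity per probe set and array on a linear scale; which software summarised the probes is not stated in the labels or headers. From the values, each array had been scaled, with a trimmed mean between 800.49 and 801.29. Intensities were taken as log2(value + 32). A probe set was tested if it exceeded its array's 40th percentile on at least 4 injured arrays. The 12 region by time means were fitted within each array type with limma 3.58.1 (R 4.3.3, statmod 1.5.0), two-sided, and p-values were adjusted by Benjamini-Hochberg over the 3 types together. The fit was tested on simulated data. Naive samples were added in a second fit. Gene symbols came from the platform table: 18178 probe sets had 1, 391 several and 7633 none. Cortex 24 h includes 2 type A arrays (replicates 1 and 2) whose descriptions give 4 h. Their titles were followed.

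The members and the gene lists were chosen with earlier results of these data known. Genes were named by rule: the markers; the 10 largest differences a direction at every time; the 12 moderate ones a direction with the smallest p; those past the time tests, or the 5 with the smallest p; up to 10 of opposite signs; and up to 4 a list. Other list members were named after their values were seen. Alternatives are given in the closing section. No other columns of per-sample values were left out (0).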

Additional observations from a re-analysis of the deposited data

Results flagged for a closer look

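The region difference itself differed between times for 16 probe sets. The adjusted p of the F test was 0.00291 for Ankfy1, 0.00587 for Mrpl41 and for Cyp4b1, 0.0127 for 2 probe sets without a gene name, 0.0209 for Hdhd5, Ube2e2 and another unnamed one, 0.0232 for Zfp91, 0.0254 for Mfhas1, 0.0271 for Mchr1, 0.0278 for Get4, 0.0302 for Scarb1, Fam135a and an unnamed one, and 0.0465 for Egr1. The early minus late region difference was -1.64 for Ankfy1, -0.67 for Mrpl41 and -1.12 for an unnamed type C probe set, whose difference ran from -1.75 at 4 h to -0.31 at 3 months. The injured minus naive region difference was 2.35 for Mgll and -1.38 for Hbb-bs. With sham samples in place of naive ones it was 0.09 for Hbb-bs.

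Among 87 groups of 4 samples of 7 genes, 6 held a sample far from its other 3, where chance gives about 1 in 20. These were Ankfy1 at 7.78 in raphe at 7 d, Mrpl41 at 10.72 in cortex at 28 d, Cyp4b1 at 5.73 in cortex at 24 h, Mgll at 8.48 in cortex at 4 h and at 6.55 in raphe at 28 d, and Hbb-bs at 13.24 in raphe at 24 h.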

How the results depend on the processing

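The count of probe sets that held at every time, 1788, was 1667 to 1812 when single samples were left out, 2039 with array weights and 1259 (518 higher, 741 lower) with raphe 4 h replicate 1 included. The count over the 6 times was 9994 to 10360 when single samples were left out. No alternative reversed the sign of a difference that was named by rule and past the threshold. The balance of directions did move: under quantile normalization 924 probe sets were higher and 905 lower at every time, against 863 and 925. The moderate count was 749 with raphe 4 h replicate 1 included and 658 with a band of 0.5 to 1, and 1109 to 1228 with single samples left out. By gene, 988 held at every time by the brightest probe set, 726 where all probe sets had to hold and 1121 where any did. Leaving out single samples gave 3320 to 4801 at 4 h, 4000 to 4805 at 24 h, 4049 to 4793 at 7 d, 3568 to 4315 at 14 d, 3603 to 4348 at 28 d, 4193 to 4975 at 3 months and 3264 to 3906 in naive rats, where sham samples in place of naive ones gave 7746, and 7451 without cortex sham 14 d replicate 2.

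The time tests depended on the processing, and the cause was not tested. The F test, 16 probe sets, gave 35 under quantile normalization, 107 with array weights, 36 with p-values adjusted within each array type, 8 with raphe 4 h replicate 1 included and 28 without cortex 7 d replicate 2. The early against late shift, 3 probe sets, gave 9, 19, 9, 9 and 6 in that order, 7 with the larger constant, 9 with the filter at the 60th percentile and 6 without the 2 arrays of conflicting labels. Early against late within raphe, 131, gave 87 without the filter, and within cortex, 178, gave 286 with array weights and 59 with raphe 4 h replicate 1 included. The injured against naive count, 2, was 1 under quantile normalization, 0 with the smaller constant (1839 at an unadjusted p under 0.05), 1 without the filter, 7 at the 60th percentile, 8 with array weights, 27 adjusted within type, 1 with raphe 4 h replicate 1 included, 17 without cortex 7 d replicate 2, 30 with sham samples and 14 without cortex sham 14 d replicate 2. Single samples left out gave 8 to 46, 2 to 25, 40 to 176, 99 to 223 and 0 to 60 for these 5 counts, the last 0 without raphe naive replicate 2 (1612 unadjusted) and 60 without raphe naive replicate 4.

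Replicate numbers showed no sign of pairing: deviations of same-numbered samples correlated at -0.14 to 0.14 (median 0.001, 23 pairs), those of other pairs at -0.18 to 0.16 (69 pairs), and 5 of 23 raphe samples matched their own number best. Such weak correlations cannot show that the 2 regions came from different rats. With the replicate number as a block, 1597 probe sets held at every time, 1044 of them moderate, 2 shifted and 0 passed limma's F test, with 1824 at an unadjusted p under 0.05; changes within a region lie between such blocks and could not be fitted. The alternatives for sham samples were chosen after seeing the data. Signals near the negative controls limit the size of differences, and 4 samples a group limit the time tests.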

Other observations

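Most genes of the respiratory chain and the proteasome that passed the test were slightly higher in raphe. Of 56 genes of the respiratory chain 44 were higher in raphe and none lower (median 0.36, against 0.02 over all 9231 genes, of which 32.5% were higher), and only 3 held at every time: the ATP synthase subunits Atp5mf (0.50; raphe 13.11 to 13.73, cortex 12.52 to 13.09), Atp5mc3 (0.59) and Atp5pd (0.45). Of 36 proteasome genes 24 were higher and 1 lower, and Psmc5 (0.70), Psmc1 (0.68), Psmd12 (0.63) and Psmd6 (0.44) held at every time. Of 51 ribosomal protein genes 12 were higher, 9 lower and none held at every time.

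Of 23 genes of cholesterol and fatty acid synthesis 18 were higher in raphe and 1 lower (median 0.43). Scd, the stearoyl-CoA desaturase, ran from 9.67 to 10.45 in raphe and from 8.15 to 9.33 in cortex (1.23), and Sqle, squalene epoxidase, from 11.04 to 11.94 and from 9.90 to 10.91 (1.04). Acat2 (0.80) and Fasn (0.77) were the other moderate ones at every time. Of 25 chaperone genes 14 were higher and 2 lower. Cryab (1.64) and Bag3 (1.67), which work with small heat shock proteins, and Hspb8 (1.05), Hspa2 (0.96) and Hspe1 (0.55) were higher at every time, whereas Dnajb5 (-1.45) was lower.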
